A study of Homo sapiens with 12 samples.

Results

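RNA of 10 genes of the IL6 cytokine family was followed across DAOY cells, an established human medulloblastoma line. The ligands were IL6, IL11, LIF and IL24, the receptor chains were IL6ST, IL6R, IL11RA, LIFR and OSMR, and the inhibitor was SOCS3. They were taken by gene symbol from 63677 gene identifiers, and all 10 were among the 17621 genes with a mean of at least 1 TPM (transcript abundance scaled for gene length and library size). The genes had been selected on their TPM over the lines and cultures of these same libraries. Their values and calls are therefore a description, and no p-value of a single member is given. A gene is said below to have risen or fallen only where the fit across all genes called it. For the members such a call, an adjusted p under 0.05, is not a test, because they were selected on these values. The study asked what Notch signalling changes in DAOY cells and what depends on NOTCH1 or NOTCH2. The cells were of a line in which NOTCH1 had been inactivated with CRISPR/Cas9 (NOTCH1KO), of a line with inactivated NOTCH2 (NOTCH2KO), or wild type (WT). Each was grown on plates coated with the Notch ligand Jagged1 or with Fc, the control protein, and received the γ-secretase inhibitor DAPT for 12 h, which blocks Notch receptors, or the solvent DMSO. All cells were kept in DMEM with serum and antibiotics. Each of the 12 combinations had 1 library, so that a genotype was read over 4 cultures and a culture over 3 lines. The sources do not say whether each knockout line was 1 clone, and a difference between lines cannot be told apart from a difference between clones.

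Cytokines of the IL6 family signal through IL6ST, also named gp130, which pairs with a chain particular to the ligand. IL6 and IL11 first bind IL6R or IL11RA and then draw in gp130, while LIF uses a dimer of LIFR and gp130, and OSMR pairs with gp130 for oncostatin M. The receptors activate JAK kinases and the transcription factor STAT3, one of whose targets is SOCS3, a protein that binds gp130 and the kinases and ends the signal. IL24 was kept with the family as a cytokine that signals through STAT3, although by sequence and receptors (IL20RA, IL20RB and IL22RA1) it belongs with IL10, and SOCS3 is an inhibitor and not a receptor, so that the family name does not strictly cover either.

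The 250 bases before the start of IL6, IL11 and IL24 are shown because these members had the lowest log2 differences with DAPT on Jagged1. They were read from RefSeq promoters of build GRCh38.p14, 5′ to 3′ on the gene strand, and lie at chr7:22726950-22727199 (+) for IL6, chr19:55370464-55370713 (-) for IL11 and chr1:206897193-206897442 (+) for IL24.
IL6: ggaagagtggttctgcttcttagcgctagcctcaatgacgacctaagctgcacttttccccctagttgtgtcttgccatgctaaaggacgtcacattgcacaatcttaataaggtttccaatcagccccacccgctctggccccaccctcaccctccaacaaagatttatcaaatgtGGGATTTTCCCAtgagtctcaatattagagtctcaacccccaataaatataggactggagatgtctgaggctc
IL11: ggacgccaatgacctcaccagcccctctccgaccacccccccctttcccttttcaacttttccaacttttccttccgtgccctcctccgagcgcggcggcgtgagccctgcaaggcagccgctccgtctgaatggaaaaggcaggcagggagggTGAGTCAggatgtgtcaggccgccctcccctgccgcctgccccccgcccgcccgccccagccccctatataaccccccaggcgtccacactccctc
IL24: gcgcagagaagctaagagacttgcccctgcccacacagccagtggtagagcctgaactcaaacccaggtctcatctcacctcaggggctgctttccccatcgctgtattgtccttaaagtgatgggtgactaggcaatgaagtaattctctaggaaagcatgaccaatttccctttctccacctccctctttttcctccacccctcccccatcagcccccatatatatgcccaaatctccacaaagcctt
Capitals mark matches among the 4 motifs searched on both strands, which were the core site of CSL, the DNA-binding partner of Notch (TGGGAA), and sites of STAT factors (TTCNNNGAA), AP-1 (TGANTCA) and NF-kB (GGG, then 2 bases of any kind, then TTTCC). In IL6 the capitals hold an NF-kB match on the gene strand at -73 to -64 and, overlapping it, a CSL core on the other strand at -67 to -62. In IL11 they hold an AP-1 match at -96 to -90, and the IL24 window had none of these letters. Of the members, 9 had a promoter in the table, with 13 windows in all. The CSL core was in 5 of the 13 windows (1 each of IL6, IL11RA, LIFR, OSMR and SOCS3) and in 20.8% of all 35116 windows. The STAT match was in 2 of the 13, both of LIFR, and in 6.57% of all windows, the AP-1 match in 1, of IL11, and in 6.57%, and the NF-kB match in 1, of IL6, and in 1.73%. These matches describe letters and show no binding.

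The libraries held 18.3 to 22.4 M aligned reads, at which 1 read per kb of transcript stood for 0.0947 to 0.117 TPM. The 66 pairs of libraries correlated between 0.975 and 0.991 across genes, and 0 pairs were identical. NOTCH1 lay at 0.278 to 0.874 TPM in NOTCH1KO, against 2.78 to 3.57 TPM in WT cells. NOTCH2 lay at 41.6 to 60.5 TPM in NOTCH2KO, against 74.9 to 94.9 TPM in WT cells, so that its RNA was still present. HES1, a direct Notch target, was at 25.0 to 35.7 TPM with DAPT on Jagged1, against 55.0 to 83.6 TPM with DMSO. HES1, HES4, HEY1 and HEY2 were higher on Jagged1 than on Fc in DMSO in each line. NRARP and NOTCH3 were so only in NOTCH1KO and WT cells. In NOTCH2KO NRARP had 3.187 TPM on Jagged1 and 3.995 TPM on Fc, and NOTCH3 0.2375 and 0.2457 TPM. In WT cells NOTCH3 had 16.19 and 1.716 TPM. HEY1 had 18.3 TPM with DMSO and 13.07 TPM with DAPT on Jagged1 in NOTCH2KO, against 56.57 and 10.94 TPM in WT cells. How this bears on the ligands was not tested. The leukocyte markers summed to 3.63 to 12.5 TPM in NOTCH1KO and 1.58 to 2.58 TPM in NOTCH2KO, against 3.54 to 5.47 TPM in WT cells, with PTPRC, CD3E and AIF1 at 0 in all libraries and CSF1R the one that averaged 1 TPM or more. CSF1R, a growth factor receptor of macrophages, averaged 6.78 ± 3.95 TPM in NOTCH1KO and 1.37 ± 0.350 TPM in NOTCH2KO, against 3.72 ± 1.31 TPM in WT cells (SD over 4 cultures each). The sum of 7 fibroblast or mesenchymal markers was 785 to 1466 TPM. The 11 neural markers summed to 78.7 to 96.8 TPM in NOTCH1KO and 115 to 135 TPM in NOTCH2KO, against 98.1 to 119 TPM in WT cells, and the 4 endothelial ones to 3.11 to 10.4 TPM over all libraries. TUBB3 had the highest median of the neural list, at 52.76 TPM, and single members did not all follow the sum. Of 8 neural markers tested in NOTCH1KO against WT, limma called 1 higher (NES) and 2 lower (ZIC1 and OTX2). Of all genes 23.5% were called in either direction there. In NOTCH2KO against WT it called 1 of the 8 higher and 1 lower, beside 19.3% of all genes. NES averaged 6.504 TPM in NOTCH1KO and 0.7302 TPM in WT cells. In bulk RNA, fewer cells that make a transcript and less of it per cell cannot be told apart.

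On GRCh37, the build of the files, IL6 lies on chromosome 7 at 22765503 to 22771621 (plus strand), IL11 lies on chromosome 19 at 55875757 to 55881831 (minus strand), LIF on 22 at 30636436 to 30642840 (minus) and IL24 on 1 at 207070788 to 207077484 (plus). Of the receptor chains, IL6ST lies on chromosome 5 at 55230923 to 55290821 (minus), LIFR on 5 at 38475065 to 38608456 (minus), OSMR on 5 at 38845960 to 38945698 (plus), IL6R on 1 at 154377669 to 154441926 (plus) and IL11RA on 9 at 34650699 to 34661889 (plus). SOCS3 lies on chromosome 17 at 76352864 to 76356158 (minus).

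IL6 was the most abundant member. Its mean over the 12 libraries was 333 TPM. TPM are scaled for gene length, which allows a rough order of genes. The ratio of coverage to FPKM was unlike between members over the libraries. It was 0.128 to 0.205 for LIFR, 0.329 to 0.443 for IL6 and 0.472 to 0.736 for IL6ST. For LIF and SOCS3 it was 0.933 to 1.14, so the order given here is one of TPM only. The next were IL6ST with a mean of 119 TPM, LIF with 74.5 TPM, IL11 with 57.5 TPM, OSMR with 35.0 TPM and SOCS3 with 25.3 TPM. LIFR followed with 7.18 TPM, IL11RA with 6.89 TPM, IL24 with 2.67 TPM and IL6R, the binding chain for IL6, with 1.06 TPM. The ranges of all neighbours in this order overlapped over the 12 libraries. Within a library, IL6 was above IL6ST and IL6ST above LIF in each of the 12, and SOCS3 was above LIFR in each. The other neighbours changed places between libraries, as LIF (41.1 to 120 TPM) and IL11 (15.7 to 140 TPM), OSMR (25.3 to 42.3 TPM) and SOCS3 (10.7 to 36.7 TPM), or LIFR (3.87 to 10.8 TPM) and IL11RA (2.38 to 11.7 TPM) did. The highest library exceeded the lowest by 8.92 times for IL11, 6.73 times for IL24, 6.58 times for IL6R and 5.38 times for IL6, and by 1.67 times for OSMR and 1.89 times for IL6ST. The plot of TPM by culture shows IL6, IL11 and IL24 lower with DAPT than with DMSO in each line on either plate, and LIF and SOCS3 lowest in NOTCH1KO and highest in NOTCH2KO in each culture.

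**Figure D1:**
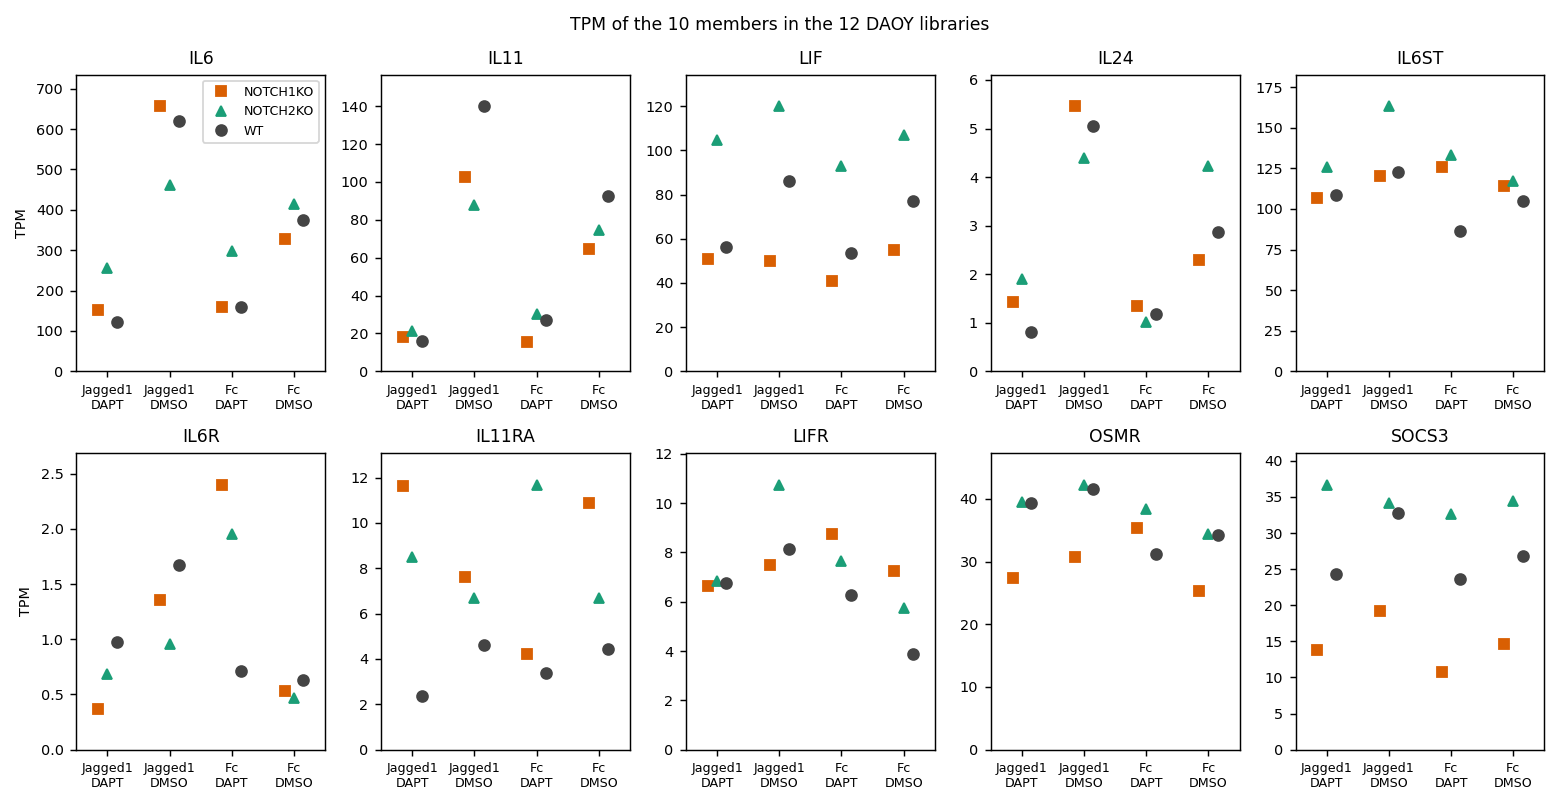
TPM (y axes, from 0) of the 10 members in the 4 cultures (x axes), 1 point per library, with squares for NOTCH1KO, triangles for NOTCH2KO and circles for WT. IL6, IL11 and IL24 were highest with DMSO on Jagged1 in each line, from 461 TPM up for IL6, and SOCS3 in NOTCH1KO stayed between 10.7 and 19.2 TPM.

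DAPT on Jagged1 plates set active against blocked Notch, and IL11 fell. IL11, which binds IL11RA, had 17.9 TPM in NOTCH1KO, 21.1 TPM in NOTCH2KO and 15.9 TPM in WT cells with DAPT, against 103 TPM in NOTCH1KO, 87.7 TPM in NOTCH2KO and 140 TPM in WT cells with DMSO. All 3 values with DAPT were below all 3 with DMSO, and the drop within a line was 82.5% in NOTCH1KO, 76.0% in NOTCH2KO and 88.7% in WT cells. On the log2(TPM + 1) scale the fitted difference was -2.51 ± 0.23 (SE). IL6, the founding ligand, had 151 TPM in NOTCH1KO, 256 TPM in NOTCH2KO and 122 TPM in WT cells with DAPT, against 656 TPM in NOTCH1KO, 461 TPM in NOTCH2KO and 619 TPM in WT cells with DMSO. These groups did not overlap either, and IL6 was lower with DAPT by 77.0% in NOTCH1KO, 44.4% in NOTCH2KO and 80.3% in WT cells, with a log2 difference of -1.76 ± 0.28 (SE) that was not called. IL24 had 1.43 TPM in NOTCH1KO, 1.90 TPM in NOTCH2KO and 0.811 TPM in WT cells with DAPT, against 5.46 TPM in NOTCH1KO, 4.39 TPM in NOTCH2KO and 5.06 TPM in WT cells with DMSO. It was thus lower in each line, and its log2 difference of -1.35 ± 0.21 (SE) was not called. At these low levels the added 1 TPM makes the log2 difference of IL24 smaller than that of its TPM.

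LIF, the ligand of LIFR, overlapped between the cultures. It had 50.7 TPM in NOTCH1KO, 105 TPM in NOTCH2KO and 56.2 TPM in WT cells with DAPT on Jagged1, against 49.9 TPM in NOTCH1KO, 120 TPM in NOTCH2KO and 86.0 TPM in WT cells with DMSO. It was highest in NOTCH2KO in both cultures, and the log2 difference was -0.26 ± 0.12 (SE). SOCS3 differed by -0.25 ± 0.14 and IL6ST by -0.24 ± 0.13 in log2. LIFR was the only receptor whose groups did not overlap, at 6.65 to 6.83 TPM with DAPT, against 7.50 to 10.8 TPM with DMSO, and its log2 difference was -0.33 ± 0.18 (SE). The remaining receptors had log2 differences of -0.48 ± 0.28 for IL6R, -0.11 ± 0.13 for OSMR and 0.05 ± 0.37 for IL11RA.

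With limma, 1 of the 10 members (IL11) was called in this comparison, beside 0.0284% of all genes tested, and 3 members were under an unadjusted p of 0.05, beside 11.0%. In 4 members every library with DAPT was below every library with DMSO, beside 4.98% of all genes. The members had been picked for such values, so nothing is read from these shares. The median log2 difference was -0.29 over the members and 0.00 over all genes. The call of IL11 was lost when any of 8 libraries was left out (WT Fc DMSO, WT Jagged1 DMSO, NOTCH1KO Fc DMSO, NOTCH1KO Jagged1 DMSO, NOTCH1KO Jagged1 DAPT, NOTCH2KO Fc DMSO, NOTCH2KO Fc DAPT or NOTCH2KO Jagged1 DAPT), with log2 differences between -2.74 and -2.27 over all 12 omissions. Without the NOTCH2KO Jagged1 DMSO library 3 members were called, which were IL11, IL6 (log2 difference -2.15) and IL24 (log2 difference -1.52). Of all genes 118 were then called, in place of 5, and nothing is read from this gain. Of the 6 fibroblast or mesenchymal markers tested 0 were called by limma and 3 were under an unadjusted p of 0.05, and the sum of the list was 845 to 1238 TPM with DAPT on Jagged1, against 935 to 1327 TPM with DMSO. Their part in the result was not tested.

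**Figure D2:**
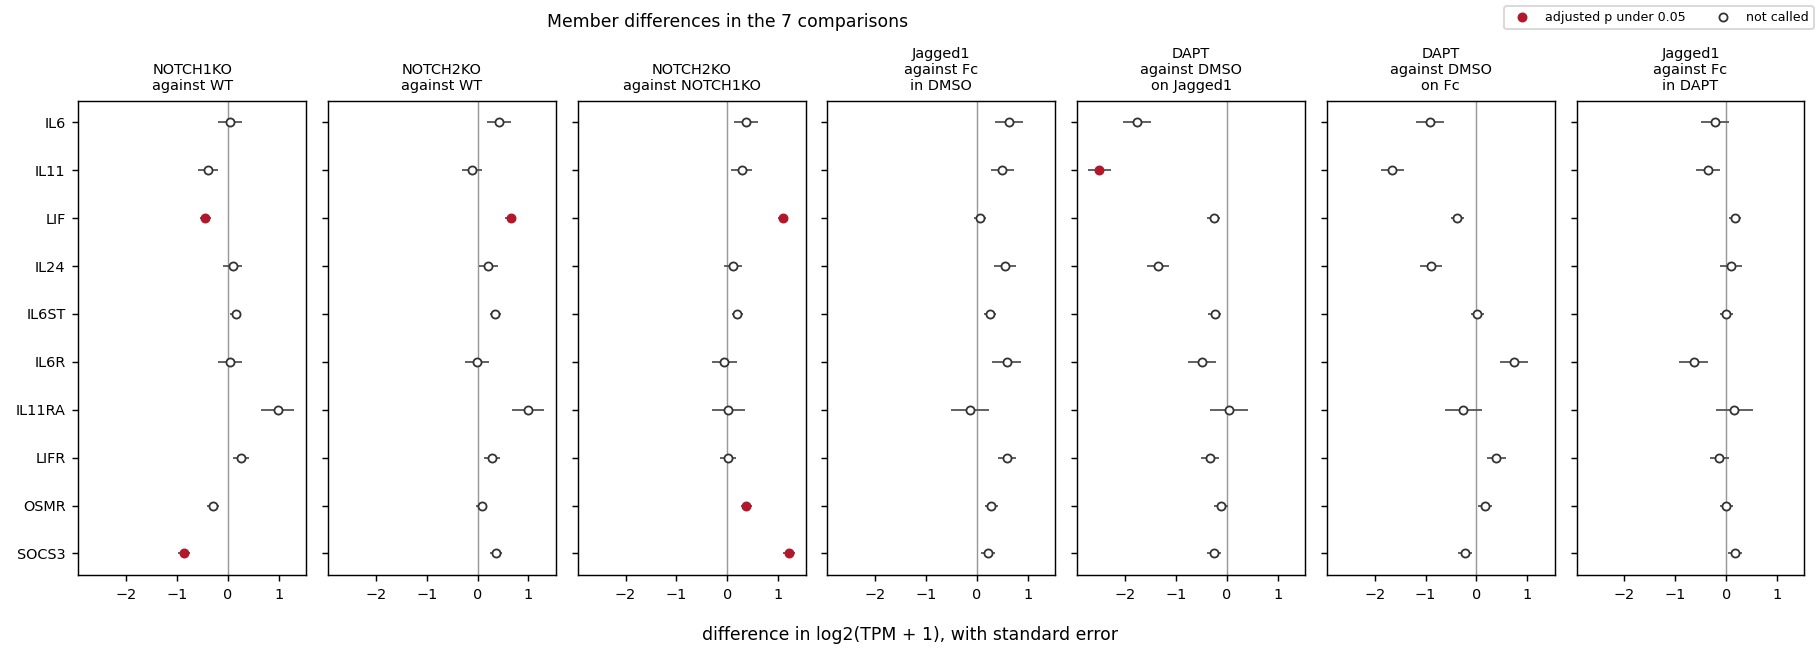
Differences in log2(TPM + 1) of the 10 members (rows) in the 7 comparisons (panels), as points with standard errors, filled where called at an adjusted p under 0.05 over all genes. IL11 at -2.51 with DAPT on Jagged1 was the lowest point and SOCS3 at 1.21 in NOTCH2KO against NOTCH1KO the highest.

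DAPT against DMSO on Fc plates was the comparison without added ligand, and the same 3 ligands were lower. How much Notch activity remained on Fc was not measured directly. IL11 had 15.7 TPM in NOTCH1KO, 30.3 TPM in NOTCH2KO and 27.4 TPM in WT cells with DAPT, against 64.5 TPM in NOTCH1KO, 74.6 TPM in NOTCH2KO and 92.7 TPM in WT cells with DMSO. Its groups did not overlap, and the log2 difference was -1.66 ± 0.23 (SE). IL6 had 159 TPM in NOTCH1KO, 298 TPM in NOTCH2KO and 159 TPM in WT cells with DAPT, against 328 TPM in NOTCH1KO, 414 TPM in NOTCH2KO and 376 TPM in WT cells with DMSO. The groups were again apart, with a log2 difference of -0.91 ± 0.28 (SE). IL24 had 1.34 TPM in NOTCH1KO, 1.03 TPM in NOTCH2KO and 1.18 TPM in WT cells with DAPT, against 2.30 TPM in NOTCH1KO, 4.22 TPM in NOTCH2KO and 2.87 TPM in WT cells with DMSO, a log2 difference of -0.89 ± 0.21 (SE). LIF was lower in each of the 3 lines by 13.1 to 30.4%, but its groups overlapped, and the log2 difference was -0.37 ± 0.12 (SE).

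The receptor chains had no common direction with DAPT on Fc. IL6R had 2.40 TPM in NOTCH1KO, 1.95 TPM in NOTCH2KO and 0.713 TPM in WT cells with DAPT, against 0.536 TPM in NOTCH1KO, 0.467 TPM in NOTCH2KO and 0.634 TPM in WT cells with DMSO. It was higher in each line, with a log2 difference of 0.74 ± 0.28 (SE), at a level of few reads per kb. LIFR was likewise higher in each line, with 6.26 to 8.76 TPM with DAPT, against 3.87 to 7.25 TPM with DMSO, and overlapped. With limma 0 of the 10 members were called, beside 0.0341% of all genes, and 5 were under an unadjusted p of 0.05, beside 6.14%. In 3 members all libraries with DAPT were lower, beside 2.30% of all genes, and in 1 all were higher, beside 2.45%. The median log2 difference was -0.24 over the members and 0.00 over all genes.

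Jagged1 against Fc in DMSO asked what added ligand changed. IL6 had 656 TPM in NOTCH1KO, 461 TPM in NOTCH2KO and 619 TPM in WT cells on Jagged1, against 328 TPM in NOTCH1KO, 414 TPM in NOTCH2KO and 376 TPM in WT cells on Fc. Every value on Jagged1 was above every value on Fc, by 2.0 times in NOTCH1KO, 1.11 times in NOTCH2KO and 1.65 times in WT cells, and the log2 difference was 0.62 ± 0.28 (SE). IL24 was 2.37 times as high in NOTCH1KO, 1.04 times in NOTCH2KO and 1.77 times in WT cells on Jagged1, without overlap and with a log2 difference of 0.56 ± 0.21 (SE). IL11 was 1.59 times as high in NOTCH1KO, 1.18 times in NOTCH2KO and 1.51 times in WT cells, but its groups overlapped, with 87.7 to 140 TPM on Jagged1 against 64.5 to 92.7 TPM on Fc, and the log2 difference was 0.49 ± 0.23 (SE). For these 3 ligands the NOTCH2KO line had the smallest ratio, as the plot of matched differences shows.

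Some receptor chains were also higher on Jagged1 in DMSO, without a call. LIFR had 7.50 TPM in NOTCH1KO, 10.8 TPM in NOTCH2KO and 8.16 TPM in WT cells on Jagged1, against 7.25 TPM in NOTCH1KO, 5.75 TPM in NOTCH2KO and 3.87 TPM in WT cells on Fc. The groups did not overlap, and the log2 difference was 0.58 ± 0.18 (SE). IL6R had 0.958 to 1.68 TPM on Jagged1, against 0.467 to 0.634 TPM on Fc, a log2 difference of 0.58 ± 0.28 (SE). IL6ST had 120 to 163 TPM on Jagged1, against 105 to 117 TPM on Fc, a log2 difference of 0.26 ± 0.13 (SE). OSMR differed by 0.28 ± 0.13, SOCS3 by 0.21 ± 0.14, LIF by 0.06 ± 0.12 and IL11RA by -0.14 ± 0.37 in log2, and all 4 overlapped.

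With limma 0 of the 10 members were called for Jagged1 against Fc in DMSO, beside 0.0114% of all genes, and 2 were under an unadjusted p of 0.05, beside 10.8%. In 5 members every library on Jagged1 was higher, beside 4.77% of all genes. The median log2 difference was 0.39 over the members and 0.02 over all genes. With DAPT present, Jagged1 against Fc gave 0 of 10 calls by limma, beside 0.00568% of all genes, and 1 member under an unadjusted p of 0.05, beside 4.74%. In 0 members the libraries were all higher, beside 1.95% of all genes, and in 0 all lower, beside 1.81%. There IL11 differed by -0.36 ± 0.23, IL6 by -0.22 ± 0.28 and IL24 by 0.10 ± 0.21 in log2, and the median over the members was 0.00. The libraries of each culture served 2 of the 4 culture comparisons, which are therefore not independent of each other.

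**Figure D3:**
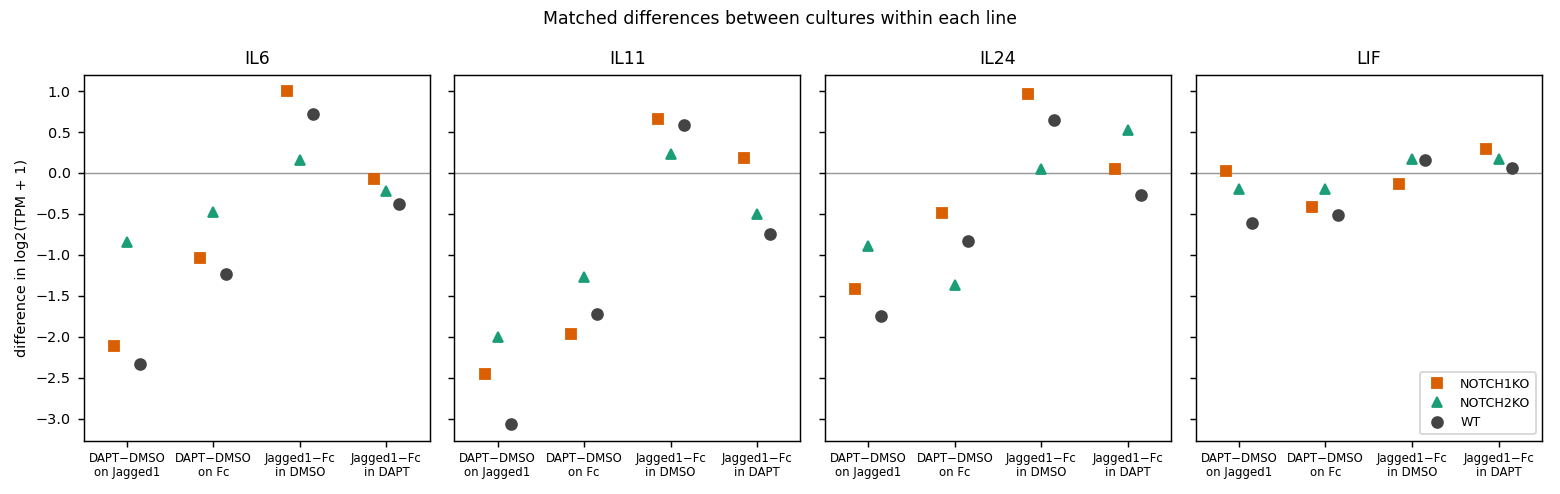
Differences in log2(TPM + 1) between matched cultures of the same line (y axis) for IL6, IL11, IL24 and LIF, 1 point per line, with squares for NOTCH1KO, triangles for NOTCH2KO and circles for WT. With DAPT on Jagged1, IL6 lay at -2.11 in NOTCH1KO, -0.84 in NOTCH2KO and -2.33 in WT cells.

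The response to the active culture was then compared between the lines. In the active culture, Jagged1 with DMSO, IL6 exceeded the mean of the 3 other cultures of its line by 1.72 in log2 in NOTCH1KO, by 0.54 in NOTCH2KO and by 1.67 in WT cells. In NOTCH2KO IL6 stayed at 256 to 298 TPM with DAPT, where NOTCH1KO had 151 to 159 TPM and WT cells 122 to 159 TPM. The difference of differences was 0.05 ± 0.35 (SE) for NOTCH1KO minus WT and -1.13 ± 0.35 (SE) for NOTCH2KO minus WT. For IL11 the excess was 1.92 in NOTCH1KO, 1.25 in NOTCH2KO and 1.99 in WT cells, and for IL24 it was 1.28 in NOTCH1KO, 0.78 in NOTCH2KO and 1.29 in WT cells. The differences of differences against WT were -0.07 ± 0.41 in NOTCH1KO and -0.74 ± 0.41 in NOTCH2KO for IL11, and -0.01 ± 0.43 in NOTCH1KO and -0.50 ± 0.43 in NOTCH2KO for IL24. With limma 0 of the 10 members were called for NOTCH1KO minus WT, beside 0.0851% of all genes, and 0 were under an unadjusted p of 0.05, beside 5.41%. For NOTCH2KO minus WT 0 were called, beside 0.0851%, and 1 was under an unadjusted p of 0.05, beside 5.89%. Nothing is read from these shares. PDGFRB, a mesenchymal marker, had 66.0 TPM in NOTCH1KO, 7.34 TPM in NOTCH2KO and 73.4 TPM in WT cells in the active culture. Its difference of differences for NOTCH2KO minus WT was -2.80 ± 0.36 (SE), and most other tested markers of its list did not follow it. These had -1.305 for LUM, -0.32 for COL1A1, -0.19 for THY1, -0.13 for FAP and 0.13 for COL1A2. The part of these markers in the result was not tested.

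NOTCH1KO against WT asked what the loss of NOTCH1 changed over the 4 cultures, and LIF and SOCS3 fell. SOCS3, the feedback inhibitor of gp130, had 13.8 TPM with DAPT on Jagged1, 19.2 TPM with DMSO on Jagged1, 10.7 TPM with DAPT on Fc and 14.6 TPM with DMSO on Fc in NOTCH1KO, against 24.3, 32.8, 23.7 and 26.9 TPM in WT cells in the same cultures. Its groups did not overlap, and the log2 difference was -0.86 ± 0.12 (SE). LIF had 50.7 TPM with DAPT on Jagged1, 49.9 TPM with DMSO on Jagged1, 41.1 TPM with DAPT on Fc and 54.9 TPM with DMSO on Fc in NOTCH1KO, against 56.2, 86.0, 53.8 and 77.2 TPM in WT cells. LIF was lower in 4 of 4 cultures, by 9.67 to 42.0%, although the groups overlapped, and the log2 difference was -0.45 ± 0.11 (SE). IL11 was lower in 3 of 4 cultures without a call, with a log2 difference of -0.39 ± 0.20 (SE). IL6 averaged 324 ± 236 TPM in NOTCH1KO and 319 ± 229 TPM in WT cells (SD over 4 cultures each), a log2 difference of 0.05 ± 0.24 (SE). IL24 differed by 0.10 ± 0.19 in log2.

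In NOTCH2KO against WT, LIF rose. It had 105 TPM with DAPT on Jagged1, 120 TPM with DMSO on Jagged1, 92.8 TPM with DAPT on Fc and 107 TPM with DMSO on Fc in NOTCH2KO, and every one of these was above the highest WT value of 86.0 TPM. The log2 difference was 0.65 ± 0.11 (SE). SOCS3 had 32.6 to 36.7 TPM in NOTCH2KO, against 23.7 to 32.8 TPM in WT cells, and was higher in 4 of 4 cultures with a log2 difference of 0.36 ± 0.12 (SE) that was not called. IL6 differed by 0.42 ± 0.24, IL24 by 0.21 ± 0.19 and IL11 by -0.11 ± 0.20 in log2. Both knockout comparisons used the same WT libraries, so the opposite directions of LIF in them are not independent.

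Set against each other, the knockout lines differed most in LIF and SOCS3, which rose in NOTCH2KO relative to NOTCH1KO. LIF averaged 106 ± 11.1 TPM in NOTCH2KO and 49.1 ± 5.82 TPM in NOTCH1KO (SD over 4 cultures each), a log2 difference of 1.10 ± 0.11 (SE). SOCS3 averaged 34.5 ± 1.71 TPM in NOTCH2KO and 14.6 ± 3.49 TPM in NOTCH1KO, a log2 difference of 1.21 ± 0.12 (SE). OSMR averaged 38.6 ± 3.29 TPM in NOTCH2KO and 29.7 ± 4.40 TPM in NOTCH1KO, and rose by 0.38 ± 0.11 (SE) in log2 with overlap between the groups. TPM placed all genes 0.15 higher in log2 in this comparison than libraries centred on their medians did. Relative to that shift LIF was higher by 0.94, SOCS3 by 1.06 and OSMR by 0.22, and the call of OSMR was lost. The OSMR call was also lost when any of 8 libraries was left out, which were all NOTCH2KO libraries, the WT Fc DMSO library and the NOTCH1KO libraries other than the Fc DAPT one, with log2 differences between 0.32 and 0.50 over all 12 omissions.

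In NOTCH1KO against WT limma called 2 of the 10 members (LIF and SOCS3), both lower, beside 12.8% of all genes called lower and 23.5% in either direction. In 1 member (SOCS3) the NOTCH1KO libraries were all lower, beside 12.5% of all genes, and 4 members were under an unadjusted p of 0.05, beside 37.5%. In NOTCH2KO against WT it called 1 (LIF), beside 12.0% of all genes called higher and 19.3% in either direction, and 2 members (LIF and IL11RA) were above WT without overlap, beside 15.0%, and 4 were under an unadjusted p of 0.05, beside 33.1%. In NOTCH2KO against NOTCH1KO it called 3 (LIF, OSMR and SOCS3), all higher, beside 19.8% called higher and 31.7% in either direction, 2 did not overlap, beside 19.6%, and 3 were under an unadjusted p of 0.05, beside 42.8%. These shares were near those of all genes, and nothing about the members is read from them. The median log2 difference over the members was 0.05 in NOTCH1KO against WT, 0.31 in NOTCH2KO against WT and 0.24 in NOTCH2KO against NOTCH1KO, where all genes had 0.00, 0.06 and 0.07. The call of LIF in NOTCH1KO was lost without the WT Fc DMSO library, which left a log2 difference of -0.41, and without the WT Jagged1 DMSO library, which left -0.36. Without the NOTCH1KO Fc DAPT library 4 members were called in NOTCH1KO against WT, beside 3326 of all genes in place of 4137. In NOTCH2KO against WT 4 were then called, beside 4039 of all genes in place of 3405. IL11RA was among the 4 in each. Without the NOTCH2KO Jagged1 DMSO library 3 were called in NOTCH2KO against WT (IL6, LIF and SOCS3), beside 2172 of all genes. The summed neural markers of NOTCH1KO lay below those of both other lines, while those of NOTCH2KO and WT cells overlapped. The leukocyte sums of NOTCH2KO lay below those of both other lines. The fibroblast or mesenchymal sums overlapped between the lines. Of 6 tested markers of that list limma called 2 lower in NOTCH1KO against WT, and 1 higher and 2 lower in NOTCH2KO against WT. In NOTCH2KO against NOTCH1KO it called 1 higher and 3 lower, beside the shares of all genes given above. The part of these lists in the results was not tested.

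Among the receptors, IL11RA was the one most apart between knockout and WT lines, without a call. IL11RA had 11.6 TPM with DAPT on Jagged1, 7.61 TPM with DMSO on Jagged1, 4.22 TPM with DAPT on Fc and 10.9 TPM with DMSO on Fc in NOTCH1KO, and 8.52, 6.68, 11.7 and 6.69 TPM in NOTCH2KO, against 2.38, 4.60, 3.38 and 4.44 TPM in WT cells. It was higher in 4 of 4 cultures in each knockout line, with log2 differences of 0.98 ± 0.32 in NOTCH1KO and 1.00 ± 0.32 in NOTCH2KO (SE). IL11RA overlaps GALT on the same strand, which had a mean of 20.5 TPM, and how the counting divided reads between the 2 genes is not known. The ratio of coverage to FPKM varied between 0.132 and 0.415 over the libraries for IL11RA and between 0.258 and 0.994 for IL6R. With coverage in place of TPM the NOTCH2KO difference was 0.51 in log2 and was called. IL6ST had 106 to 126 TPM in NOTCH1KO and 117 to 163 TPM in NOTCH2KO, against 86.1 to 122 TPM in WT cells, and differed from WT by 0.15 ± 0.11 in NOTCH1KO and 0.35 ± 0.11 in NOTCH2KO (log2, SE). A gene on the other strand within IL6ST, CTD-2031P19.4, had a mean of 229 TPM, and no source gave the strand setting used for counting. IL6R stayed between 0.365 and 2.40 TPM in all lines. LIFR differed by 0.26 ± 0.16 in NOTCH1KO and 0.27 ± 0.16 in NOTCH2KO, and OSMR by -0.29 ± 0.11 in NOTCH1KO and 0.08 ± 0.11 in NOTCH2KO (log2 against WT, SE).

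Of 11 further ligands and receptor chains of the family 6 averaged at least 1 TPM. OSM, the ligand of OSMR, was listed at 0 in 10 of 12 libraries and reached 0.217 TPM. CLCF1, a ligand of the CNTF receptor, fell in NOTCH1KO to 4.82 ± 1.26 TPM, against 10.8 ± 2.32 TPM in WT cells (SD over 4 cultures each, limma adjusted p = 0.0023). IL27RA, which pairs with gp130 for IL27, fell there by 0.60 in log2 (limma adjusted p = 0.018). Of the 10 relatives and receptors of IL24 2 were tested, and IL10RB, a shared chain of IL10 family receptors, fell in NOTCH1KO by 0.48 in log2 (limma adjusted p = 0.024). IL20RA, a receptor chain for IL24, had a median of 0.431 TPM, IL20RB 2.39 TPM and IL22RA1 0.535 TPM.

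Of the signalling genes behind the receptors, STAT3 was at 35.6 to 68.7 TPM and JAK1 at 81.4 to 135 TPM, while JAK3 was at 0 in 1 library and STAT4 in 5 of the 12. In NOTCH1KO against WT, 3 of 13 tested JAK-STAT genes and adaptors fell and 0 rose, namely STAT5A, STAT6 and JAK2, beside 12.8% of all genes called lower and 23.5% in either direction. Of these STAT6 had 53.6 ± 4.68 TPM in NOTCH1KO and 97.8 ± 7.60 TPM in WT cells (SD over 4 cultures each, limma adjusted p = 1.8e-04). Of 13 tested inhibitors 3 rose and 0 fell, namely SOCS5, PIAS1 and PTPN1, which are negative regulators of JAK-STAT signals, again beside 23.5% of all genes in either direction. The shares of both lists were near that of all genes, and nothing is read from them. SOCS5 also rose in NOTCH2KO against WT, by 0.48 in log2 (limma adjusted p = 0.0075). Of 16 tested genes that respond to STAT3 in many cells 11 fell and 1 rose, beside the same 23.5%. This list was chosen with earlier results of these libraries known, so its share is a description and not a test. VEGFA, a vessel growth factor, had 69.8 ± 13.2 TPM in NOTCH1KO and 181 ± 39.2 TPM in WT cells (SD over 4 cultures each). JUNB and BCL3, which encode nuclear regulators, fell by 1.47 and 1.10 in log2. The list had a median log2 difference of -0.65, beside 0.00 over all genes, and in NOTCH2KO against WT 2 of its genes rose and 5 fell, beside 19.3% of all genes in either direction, with SAA1, PIM1 and SAA2 lowest. SAA1 and SAA2 are near-identical copies whose reads the counting may have split.

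Most of the listed inflammatory mediators that often accompany IL6 were called lower in NOTCH1KO. Their list was chosen with earlier results of these libraries known. Its shares and adjusted p-values are therefore a description and not a test. In NOTCH1KO against WT 13 of 15 fell and 0 rose, beside 12.8% of all genes called lower, with a median log2 difference of -0.93. CXCL1, a neutrophil chemokine, had 66.6 ± 37.1 TPM in NOTCH1KO and 210 ± 69.4 TPM in WT cells (SD over 4 cultures each, limma adjusted p = 0.0020). CXCL2 fell by 1.63 in log2 and CSF2, the growth factor GM-CSF, by 1.59. In NOTCH2KO against WT 1 of the 15 rose and 2 fell, beside 19.3% of all genes in either direction. The one that rose was CCL2, a monocyte chemokine, with 7413 ± 280 TPM in NOTCH2KO and 4228 ± 871 TPM in WT cells (SD over 4 cultures each, limma adjusted p = 0.0028). In NOTCH2KO against NOTCH1KO 10 of the 15 rose and 0 fell, beside 19.8% of all genes called higher. With DAPT on Jagged1 limma called 0 of the 15, while 12 were under an unadjusted p of 0.05, beside 11.0% of all genes, and the median log2 difference was -0.85, beside 0.00 over all genes.

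Over all 93 pathway genes, 65 were tested. In NOTCH1KO against WT 4 rose and 30 fell, beside 23.5% of all genes called in either direction. In NOTCH2KO against WT 6 rose and 7 fell, beside 19.3%, and in NOTCH2KO against NOTCH1KO 27 rose and 5 fell, beside 31.7%. In the 4 culture comparisons limma called 0 of the 65, with 13 under an unadjusted p of 0.05 for Jagged1 against Fc in DMSO (10.8% of all genes), 21 for DAPT on Jagged1 (11.0%), 7 for DAPT on Fc (6.14%) and 6 for Jagged1 against Fc in DAPT (4.74%). These lists were chosen with earlier results of the same libraries known. Their calls and adjusted p-values, here and in the paragraphs above, are therefore a description and not a test.

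The genes most like IL6 over the 12 libraries were sought among 12443 genes by the root mean square distance between log2(TPM + 1) profiles, each centred on its own mean. The nearest was DACT1, a regulator of WNT signalling, at a distance of 0.30, where the IL6 profile itself had a root mean square of 0.78. IL24 was second at 0.33, followed by NKAIN4 at 0.33, CSGALNACT1 at 0.40 and HES1 at 0.42. DACT1 had 14.3 TPM in NOTCH1KO, 15.3 TPM in NOTCH2KO and 9.36 TPM in WT cells with DAPT on Jagged1, against 38.1 TPM in NOTCH1KO, 30.9 TPM in NOTCH2KO and 38.7 TPM in WT cells with DMSO. For IL11 the nearest were NKAIN4 at 0.43, IL6 at 0.47, DACT1 at 0.59, VSTM4 at 0.59 and CSGALNACT1 at 0.59, where IL11 itself had 1.10. NKAIN4 averaged 1.56 TPM, from 0 to 4.12 TPM over the libraries, so its distances depend on the added 1 TPM. IL11 was at rank 17 from IL6. LIF had other neighbours, CCDC80 at 0.15, LZTS1 at 0.17, KDELR3 at 0.17, ELFN1 at 0.18 and SNN at 0.18, where LIF itself had 0.49. SOCS3 was at rank 47 from LIF, with a distance of 0.24, while IL6 was at rank 10352. These distances rest on 12 libraries that share lines and cultures and are a description.

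**Figure D4:**
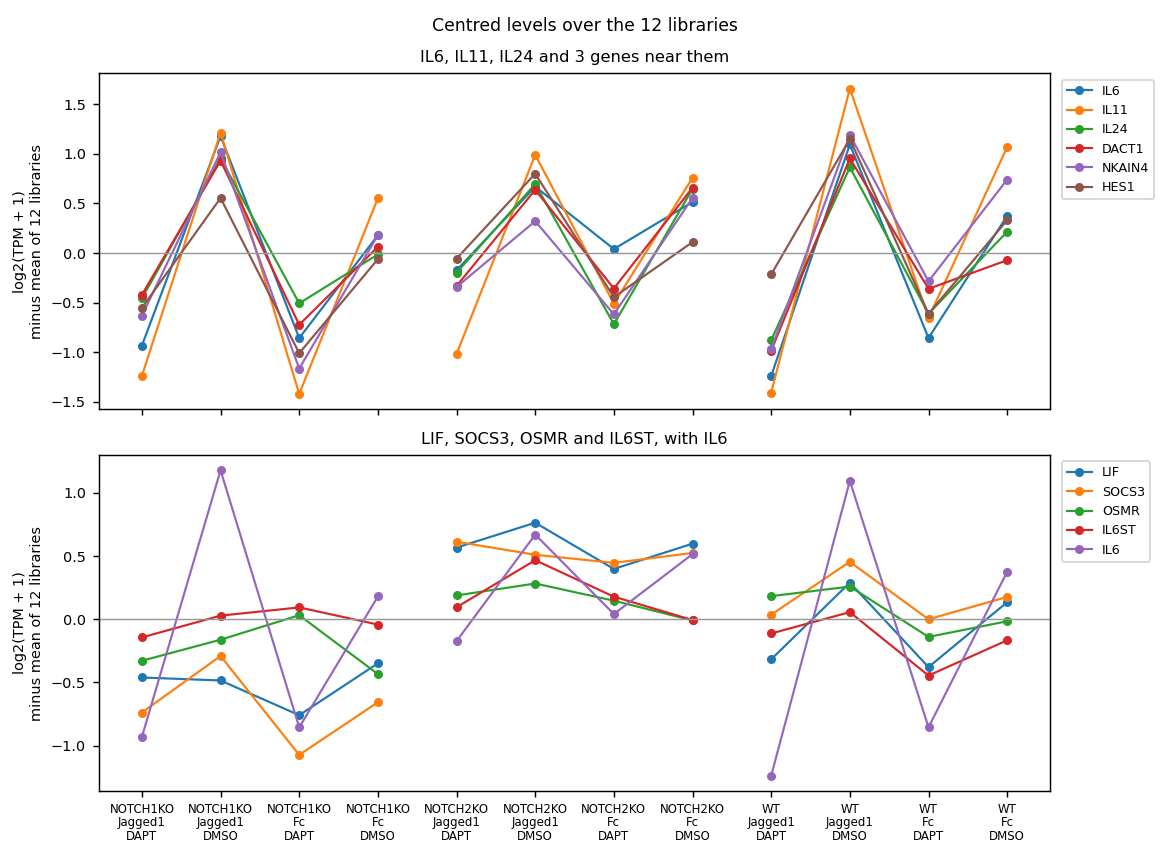
log2(TPM + 1) minus the mean of the 12 libraries (y axis) for IL6, IL11, IL24 and genes near them (upper panel) and for LIF, SOCS3, OSMR and IL6ST with IL6 (lower panel), over the 12 libraries (x axis), joined within a line. The upper genes were highest with DMSO on Jagged1 and low with DAPT in NOTCH1KO and WT cells, while LIF and SOCS3 were low in NOTCH1KO and high in NOTCH2KO in each culture.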

How the data were processed

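Poly-A RNA of the 12 DAOY cultures had been made into stranded TruSeq libraries and read from one end over 51 bases. Per the labels and the submitters' processing notes, bcl2fastq 2.17 and CASAVA were used and the genome was GRCh37, while no source named the aligner, the quantifier, the annotation release or the strand setting. The deposited TPM express each gene per unit of length and relative to its library, as computed by the authors. The deposited FPKM, also from the authors, divide reads by length and by library total. The deposited coverage of the authors is the mean read depth per base and is not scaled between libraries, and its ratio to FPKM gave the depth of 18.3 to 22.4 M reads.

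Rows of 1 gene identifier were summed. log2(TPM + 1) was fitted in R 4.3.3 with limma 3.58.1 (trend), over the 17621 genes averaging 1 TPM or more, with additive terms for genotype and culture and 6 residual degrees of freedom. The active culture was compared between lines in a model with 4. With 1 library per combination the error is the departure from additivity among these libraries, so that p-values measure only the spread between these samples, which may be technical. The 7 comparisons were adjusted over all genes (Benjamini-Hochberg) and called at an adjusted p under 0.05. Fits were tested on simulated data. Tables and figures were made in Python 3.11.15 with pandas 2.3.3, numpy 2.4.6 and matplotlib 3.10.9.

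Members and lists were chosen with earlier results of these data known. The rule for named genes took all 10 members, the targeted and Notch response genes, up to 3 genes that passed per pathway list and comparison (largest difference first), and the 5 genes nearest to IL6, IL11 and LIF. OSM, the receptor chains of IL24, STAT3, JAK1, PDGFRB, other marker genes of cell types and the overlapping genes were named beside them after their values were seen. PECAM1 was not used, and CXCL8 was matched as IL8. The alternatives were a pseudocount of 0.1, genes without a filter, genes averaging 5 TPM or more, FPKM, median-centred libraries, no replicate block and each library left out. Coverage in place of TPM and the NOTCH2KO libraries left out were added after seeing the data. 1 marker gene is not reported here.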

Additional observations from a re-analysis of the deposited data

How the results depend on the processing

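The counts of members called kept within 1.5 times of their value except in these settings. For NOTCH2KO against WT the count was 1, beside 3405 of all genes called. It became 4 with coverage in place of TPM, beside 4217 genes. With no replicate block, the fit of genotype alone where pairing by culture was dropped, it became 2, beside 3159 genes. For DAPT on Jagged1 the count was 1, beside 5 of all genes called. It became 0 with no filter on low values, where more genes were tested. It was also 0 with the NOTCH2KO libraries left out, where fewer libraries were fitted. In both settings 0 of all genes were called. With 1 library left out at a time the counts ranged from 1 to 4 for NOTCH1KO against WT and from 1 to 4 for NOTCH2KO against WT. They ranged from 2 to 3 for NOTCH2KO against NOTCH1KO and from 0 to 3 for DAPT on Jagged1. The counts were 0 for the other 3 culture comparisons and for both active-culture contrasts. Where an omission changed the DAPT on Jagged1 count, all genes called were between 0 and 118. Of the values of single members under all settings, 1531 kept direction and side of the threshold, 79 that were not called changed sign, 19 became called, 23 lost a call and 0 called values reversed. Among the lost calls was that of LIF in NOTCH1KO against WT with no replicate block. With 1 Jagged1 DMSO library left out the active-culture contrasts could not be fitted, and they were not run without the block or without NOTCH2KO, while members averaging under 5 TPM had no value with that filter. The libraries give 1 value per line and culture, so no spread between independent cultures was measured.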
